A study of Mus musculus with 10 samples.

Results

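The receptors described here are 9 C-type lectin genes of myeloid cells, chosen by symbol with earlier results of these data known. They are Clec4n, Clec4e, Clec4d, Clec7a, Clec5a, Clec12a, Clec4a1, Clec4a2 and Clec4a3. All 9 were present among the 55866 genes of the table and all 9 passed the filter on low counts. The RNA came from iKCs, a mouse cell line used in a series on miR-342 and macrophages of liver metastases. Cells had received a vector for miR-342-3p overexpression (3 libraries), a mutated miR-342-3p control (2), a miR-342-3p sponge (3) or a scramble control sponge (2), and were sorted for the vector's marker mOrange and for viability. Sponge transcripts carry sites that bind a microRNA and keep it from its targets. All groups share the cell line, the marker and the sort, and their titles name them biological replicates. Whether each library had a culture of its own is not stated in the labels, so the p-values measure only library-to-library spread, which may be technical.

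C-type lectin receptors are surface proteins with which macrophages and dendritic cells sense sugars and lipids of fungi, mycobacteria and dying cells. Clec4n (Dectin-2), Clec4e (Mincle) and Clec4d (MCL) signal through the adaptor Fcer1g, Clec5a (MDL-1) through Tyrobp, and Clec7a (Dectin-1, the β-glucan receptor) through a tyrosine motif of its own tail. These routes meet at the kinase Syk and the adaptor Card9, which lead to NF-κB and cytokine genes. Clec12a (MICL) and Clec4a2 (DCIR) instead carry an inhibitory tail motif that recruits the phosphatases Ptpn6 and Ptpn11, and Clec4a1 and Clec4a3 are close relatives of Clec4a2.

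The microRNA that the vectors raise, mutate or bind is shown first, with its seed (bases 2 to 8) in capitals, followed by the seed matches of type 7mer-A1 that the receptors' 3′ UTRs hold, with the match in capitals. The microRNA sequence is RefSeq's (GRCm38.p6, chromosome 12 from 108658680 to 108658702, plus strand), and the sites are from GENCODE vM21 transcripts of GRCm38.
mmu-miR-342-3p: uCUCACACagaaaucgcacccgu
Clec7a, bases 6 to 12 of a 3′ UTR of 1450 bases: atgtaTGTGAGAatataa
Clec5a, bases 216 to 222 of a 3′ UTR of 3072 bases: taagaccacacttccTGTGAGAggggac
None of the 9 receptor genes held the longer 7mer-m8 match GTGTGAG or the 8mer GTGTGAGA, which 15.2% of 11910 tested genes with an annotated 3′ UTR held. Clec12a held 2 matches of the 6-base core TGTGAG, so 3 of 9 had a match of at least 6 bases, against 42.1% of tested genes. The UTRs of Clec4n (436 bases), Clec4e, Clec4d, Clec4a1, Clec4a2 and Clec4a3 held none of these letters. A match describes letters only and shows no binding.

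All 9 genes lie on chromosome 6, with coordinates as in the deposited table. Clec4a1, Clec4a3, Clec4a2, Clec4n, Clec4d and Clec4e lie within 368.0 kb, from 122898807 to 123266829, and the last 3 of them within 60.0 kb. Clec12a (129319654 to 129342266, plus strand) and Clec7a (129438554 to 129449742, minus strand) lie within 130.1 kb, and Clec5a lies apart (40551828 to 40562755, minus strand). No exon base of any of the 9 was shared with another gene of the table, so antisense reads of an annotated partner do not enter these counts. In Clec4a2, 4.03% of the 75-base stretches of its longest transcript also stood in Clec4a4 or Clec4b1, and the other 8 genes shared none with any other gene. Reads from that stretch of Clec4a2 cannot be assigned to 1 gene with certainty.

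Library totals over the genes kept ran from 25712732 to 59259988 counts. Reads over the Mir342 hairpin, the check of the overexpression label, were 8.22 to 11.3 CPM with overexpression, 2.86 to 3.22 CPM in the mutated control and 0 in all 5 sponge and scramble libraries, whose labels they do not tell apart. Of 12 macrophage markers all 12 were tested, and their summed level was 6504 to 7936 CPM. Of 10 Kupffer cell markers 7 were tested. The iron exporter Slc40a1 had 741 to 1166 CPM, and none of the others exceeded 6.43 CPM (Id3) in any library. Vsig4 had at most 4 counts. Clec4f, itself a C-type lectin and the defining marker of mouse Kupffer cells, and Timd4 had 0 counts in all 10 libraries. The 8 lymphocyte and erythroid markers summed to at most 0.371 CPM and the 6 hepatocyte markers to at most 0.0985 CPM in any library, and the 8 monocyte and neutrophil markers to at most 1.09 CPM.

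**Figure D1:**
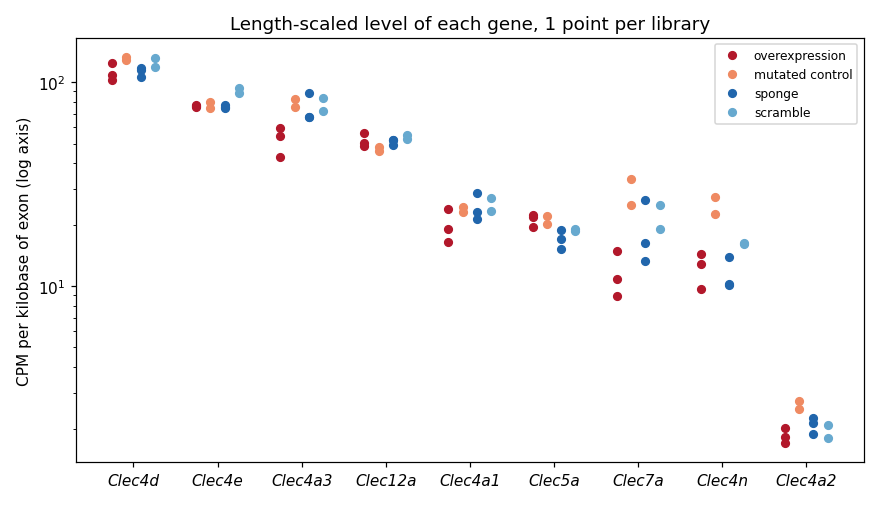
Length-scaled level of the 9 receptor genes, in CPM per kilobase of exon on a log axis, with 1 point per library coloured by group. Clec4d is highest at 102 to 133 and Clec4a2 lowest at 1.70 to 2.73, and Clec7a and Clec4n show the widest ranges.

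The receptors differed widely in level. Per kilobase of exon, Clec4d was highest, with a mean of 118 CPM per kilobase over the 10 libraries (range 102 to 133). Clec4e followed with 79.4 (74.6 to 94.0), and its range did not overlap that of Clec4d. Clec4a3 (69.4, range 43.0 to 88.3) overlapped both Clec4e and Clec12a (51.0, range 45.9 to 56.0). A middle group of Clec4a1 (23.0), Clec5a (19.5), Clec7a (19.3) and Clec4n (15.3) could not be ordered beyond its overlap between libraries. Clec4a2 was lowest (2.09, range 1.70 to 2.73), with 151 to 381 reads per library. Clec4d thus stood above 97.9% of tested genes by this measure, and Clec4a2 above 38.3%.

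**Figure D2:**
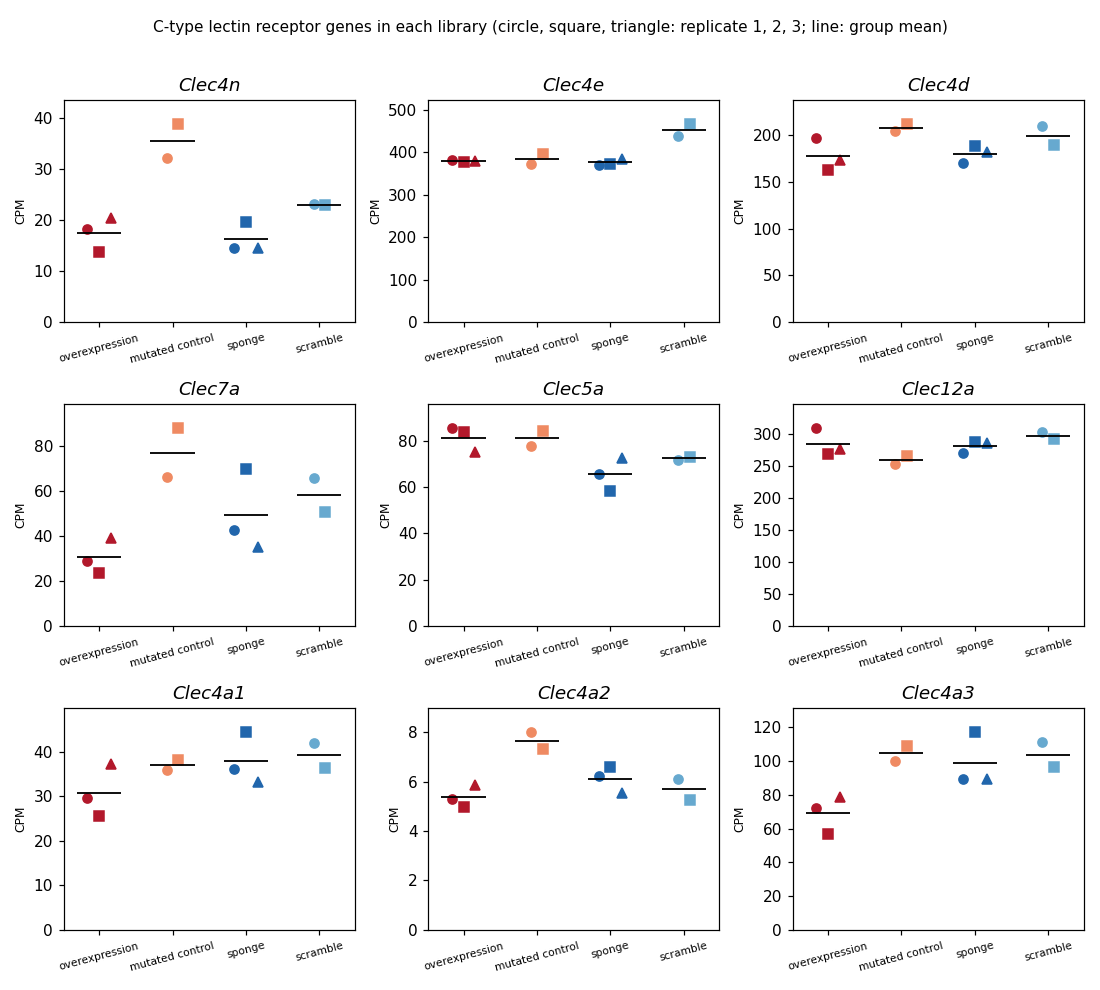
CPM of each receptor gene (vertical axis from 0) in the 4 groups, with 1 point per library, replicate number by marker shape and the group mean as a line. All 3 overexpression libraries lie below the other 7 for Clec4a3, and both mutated control libraries lie above the other 8 for Clec4n and Clec4a2.

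Overexpression against the mutated control asked what the microRNA changes. Clec4n, the Dectin-2 gene, was the only receptor gene that passed in edgeR. It had 18.2, 13.7 and 20.3 CPM in the overexpression libraries and 32.1 and 38.8 CPM in those of the mutated control. The groups did not overlap. The mean fell from 35.4 ± 4.73 CPM (SD, n = 2) to 17.4 ± 3.37 CPM (SD, n = 3), which is 2.04-fold lower (log2 fold change −1.03, SE 0.16, edgeR adjusted p = 0.0291). Of all tested genes, 0.539% passed in this comparison, 0.247% upward and 0.292% downward. In bulk RNA, fewer cells with a transcript and less transcript per cell cannot be told apart.

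Clec7a, the Dectin-1 gene, differed more in size but varied more between libraries. It had 28.7, 23.7 and 39.2 CPM with overexpression and 66.1 and 88.0 CPM in the mutated control. Every overexpression library lay below both control libraries. The difference was 2.54-fold (log2 fold change −1.35, SE 0.27) and did not pass (edgeR adjusted p = 0.0603).

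The next receptors in size belonged to the DCIR family. Clec4a3 had 72.0, 57.1 and 78.8 CPM with overexpression and 99.99 and 109 CPM in the mutated control, again without overlap (log2 fold change −0.59, SE 0.15, edgeR adjusted p = 0.0995). Clec4a2, the inhibitory member, had 5.30, 4.97 and 5.87 CPM against 8.002 and 7.31 CPM (−0.52, SE 0.12, edgeR adjusted p = 0.0809). Clec4a1 overlapped, with 29.5, 25.6 and 37.2 CPM against 35.8 and 38.1 CPM (−0.27, SE 0.15). The DCIR relatives were below the control mean in all 3 cases, without a call in edgeR.

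The remaining receptors differed less in size. Clec4d, the partner of Mincle, had 198, 163 and 174 CPM with overexpression, all below the 204 and 212 CPM of the mutated control, with a log2 fold change of −0.22 (SE 0.09, edgeR adjusted p = 0.22). Clec4e itself had 379 ± 2.75 CPM (SD, n = 3) against 384 ± 16.2 CPM (SD, n = 2), a log2 fold change of −0.02 (SE 0.06). Clec5a had 0.01 (SE 0.09), and the inhibitory Clec12a was higher by 0.14 (SE 0.07, edgeR adjusted p = 0.324). Clec4n thus differed 2.04-fold while Clec4e and Clec4d, its neighbours on the chromosome and users of the same adaptor, had log2 fold changes of −0.02 and −0.22. In all, 7 of 9 receptor genes were below 0 and their median was −0.27, against 51.2% of all tested genes below 0 and a median of −0.01. The groups did not overlap for 5 lower genes (19.3% of all tested genes) and 1 higher gene (18.9%). An unadjusted p under 0.05 was found for 5 of 9, against 18.2% of all tested genes. The 9 genes are not separate observations, since some varied together over the 10 libraries. Between pairs of them Pearson's r of log2 CPM ran from −0.67 (Clec5a and Clec4a1) to 0.93 (Clec7a and Clec4a3).

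The call of Clec4n rested on single libraries although its direction did not. It was below 0 under all 22 alternative settings and passed in 12 of them. Without mutated control replicate 1 or 2 the adjusted p was 0.206 and 0.37, and without overexpression replicate 2 it was 0.114 (log2 fold change −0.87, SE 0.15). It also missed the threshold without overexpression replicate 1 (0.0527), either scramble library (0.072 and 0.0719) or sponge replicate 1 (0.0508), and in a fit of these 2 groups alone (0.0582). Clec7a passed without sponge replicate 2 (0.0206), sponge replicate 3 (0.0308) or overexpression replicate 3 (0.0295), and in a fit of these 2 groups alone (0.0492), and without both libraries joined in the deposited table (0.0489). DESeq2 called 4 receptor genes, all lower (Clec4n, Clec7a, Clec4a2 and Clec4a3), among 500 genes in all, where edgeR called 85.

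**Figure D3:**
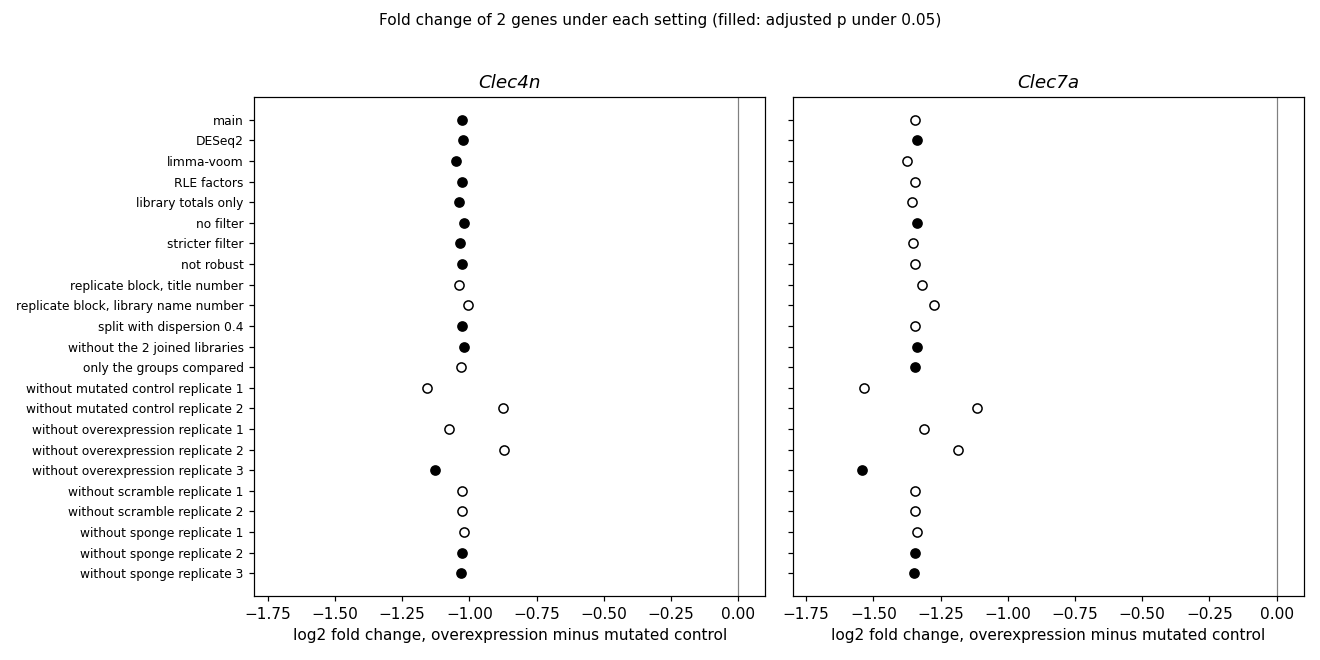
Log2 fold change of Clec4n and Clec7a, overexpression minus mutated control, on the horizontal axis, with 1 row per setting and filled points where the adjusted p is under 0.05. Both genes stay below 0 in every setting, between −1.16 and −0.87 for Clec4n and between −1.54 and −1.11 for Clec7a, while their calls change.

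Other measures moved with this comparison. The summed level of the 10 endothelial and stellate markers, of which 5 were tested and Lrat had 0 counts, was 21.4 to 24.5 CPM with overexpression, 29.3 to 31.4 CPM in the mutated control, 23.8 to 25.5 CPM in the scramble group and 24.2 to 25.6 CPM with the sponge. Most of that sum was Kdr (17.7 to 27.1 CPM), and Pecam1 had at most 0.57 CPM. The Kupffer marker sum, most of it the iron exporter Slc40a1, was 757 to 922 CPM with overexpression and 1157 to 1182 CPM in the mutated control. It was 974 to 1023 CPM in the scramble group and 887 to 1141 CPM with the sponge. The 8 dendritic cell markers, with 3 tested and Cd209a at 0 counts, summed to 8.95 to 10.4 CPM and 10.7 to 11.5 CPM in the first 2 groups. Their sum was 8.92 to 9.31 CPM in the scramble group and 8.07 to 8.89 CPM with the sponge. Zbtb46 (7.21 to 10.4 CPM) made up most of the dendritic cell sum. The ribosomal sequence Rn18s-rs5 had 557 to 602 CPM with overexpression and 938 to 1320 CPM in the mutated control. It had 697 to 923 CPM in the scramble group and 559 to 683 CPM with the sponge. The part of these in the receptors' differences was not tested.

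**Figure D4:**
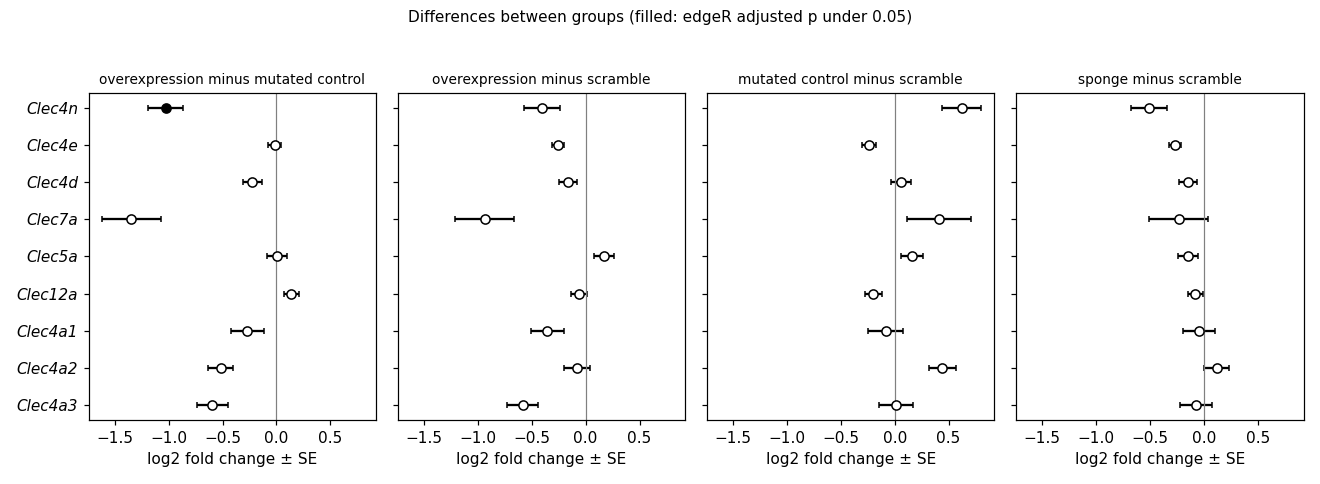
Log2 fold change of each receptor gene with its SE in 4 comparisons, filled where the edgeR adjusted p is under 0.05. Only Clec4n in overexpression minus mutated control is filled, and Clec4n, Clec4d, Clec7a, Clec4a1 and Clec4a3 lie left of 0 by more than their SE against either control.

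The scramble group served as another control for the same 3 overexpression libraries, though its vector is of the sponge type. Against it 0 of 9 receptor genes passed in edgeR, where 0.0444% of tested genes passed and 13.4% had an unadjusted p under 0.05. Such an unadjusted p was found for 5 receptor genes: Clec4n, Clec4e, Clec7a, Clec4a1 and Clec4a3. All 5 were lower with overexpression. DESeq2 called Clec4a3 and Clec4e here, among 234 genes in all, where edgeR called 7.

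Clec4a3 had nearly the same difference against either control, −0.58 (SE 0.15, edgeR adjusted p = 0.184) against the scramble group and −0.59 against the mutated control, whose own difference from the scramble group was 0.01 (SE 0.16). Its scramble libraries had 111 and 96.3 CPM, both above all 3 overexpression libraries. Clec7a had −0.94 (SE 0.27, edgeR adjusted p = 0.236) against the scramble group, with 65.6 and 50.5 CPM there. Clec4n had −0.41 (SE 0.17, edgeR adjusted p = 0.339), with 23.2 and 22.8 CPM in the scramble group. Its level in the mutated control was above the scramble group (0.62, SE 0.18), so the 2.04-fold difference is that against the higher control. Clec4a2 had −0.08 (SE 0.12), and its scramble libraries (6.09 and 5.27 CPM) lay among the overexpression libraries. Clec4e had −0.26 (SE 0.06, edgeR adjusted p = 0.177), with the mutated control at the overexpression level and the scramble group above both. The groups did not overlap for 4 lower receptor genes (15.9% of all tested genes) and for Clec5a, which was higher (15.1%).

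The controls themselves were compared as the background of a vector difference, and 0 of 9 receptor genes passed in edgeR. There 0.0254% of tested genes passed, and 6.47% had an unadjusted p under 0.05. Of the receptor genes 4 had one: Clec4n and Clec4a2 (0.44, SE 0.13) were higher in the mutated control, and Clec4e (−0.24, SE 0.06) and Clec12a (−0.20, SE 0.08) lower. The groups did not overlap for 4 higher and 2 lower receptor genes, against 24.1% and 24.2% of all tested genes. DESeq2 called Clec4e alone of the receptor genes, among 90 genes in all, where edgeR called 4. A fit of these 2 groups alone called Clec4a2, Clec4n, Clec4e and Clec12a among 574 genes in all, with 2 libraries in each group.

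The sponge against the scramble control asked what a sponge for miR-342-3p changes. Clec4e, the Mincle gene, had 370.5, 374 and 384 CPM with the sponge and 439.7 and 467 CPM in the scramble group. The sponge libraries lay below both scramble libraries and at the level of the overexpression (376 to 382 CPM) and mutated control libraries (373 and 396 CPM), and the scramble libraries were the highest 2 of 10. The log2 fold change was −0.27 (SE 0.06), and it ranked 3 of 15767 genes by p. It did not pass (edgeR adjusted p = 1). Clec4n had 14.5, 19.6 and 14.4 CPM against 23.2 and 22.8 CPM (−0.50, SE 0.17, edgeR adjusted p = 1).

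Neither these nor the other receptor genes passed for the sponge: edgeR called 0 of 9, where it called 0% of all tested genes, DESeq2 called 0 of 9 (and 1 gene in all) and limma-voom 0 of 9. An unadjusted p under 0.05 was found for 2 receptor genes and for 2.33% of all tested genes. Clec7a had 42.7, 69.8 and 35.1 CPM with the sponge, which enclosed both scramble libraries (−0.23, SE 0.27). Clec4d had −0.15 (SE 0.09), Clec5a −0.14 (SE 0.09), Clec12a −0.08 (SE 0.07), Clec4a3 −0.07 (SE 0.15), Clec4a1 −0.05 (SE 0.15) and Clec4a2 0.12 (SE 0.12). Of 9, 8 were below 0 with a median of −0.14, against 50.7% of all tested genes and a median of −0.0013. The groups did not overlap for 4 receptor genes, all lower (8.3% of all tested genes): Clec4n, Clec4e, Clec4d and Clec12a. For 0 of 9 the sponge group lay wholly higher (6.9%).

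Clec4n was below its control in each vector pair, passing only for overexpression, with 17.4 CPM on average with overexpression and 16.2 ± 2.98 CPM (SD, n = 3) with the sponge. The test of the difference between the effects gave −0.52 (SE 0.24, edgeR adjusted p = 0.618) for Clec4n. For Clec7a it gave −1.11 (SE 0.39, edgeR adjusted p = 0.537), for Clec4a2 −0.64 (SE 0.16, edgeR adjusted p = 0.402) and for Clec4a3 −0.52 (SE 0.21, edgeR adjusted p = 0.586). Clec4e pointed the other way with 0.25 (SE 0.08, edgeR adjusted p = 0.504). None of the 9 passed in edgeR or in DESeq2, which called 48 genes in all, nor did any other gene in edgeR (0% of all tested), while 8.06% had an unadjusted p under 0.05, among them 5 receptor genes. In the test of any difference among the 4 groups, Clec4n alone of the receptor genes passed (edgeR adjusted p = 0.0378, with 0.419% of all genes called). The next were Clec4e (0.121), Clec7a (0.131), Clec4a3 (0.141) and Clec4a2 (0.149).

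The receptors differed in how much the libraries of a group varied. The within-group SD of log2 CPM was 0.397 for Clec7a, above 99.5% of the tested genes whose log2 CPM averaged 2 or more, and 0.236 for Clec4n (96.1%), 0.21 for Clec4a1 (94%) and 0.203 for Clec4a3 (93.2%). It was 0.0391 for Clec4e, above 5.74% of them, and 0.0719 for Clec12a (30.5%). From the lowest to the highest library Clec7a spanned 3.72-fold, Clec4n 2.82-fold and Clec4a3 2.05-fold, and Clec12a and Clec4e only 1.22-fold and 1.26-fold. Sponge replicate 2 had the highest sponge value of Clec7a (69.8 CPM), Clec4a1 (44.4 CPM) and Clec4a3 (117 CPM) and the lowest of Clec5a (58.3 CPM). Overexpression replicate 3 likewise was the highest of its group for Clec7a, Clec4a1 and Clec4a3 and the lowest for Clec5a (74.995 CPM).

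On the first principal component of all tested genes (31.1% of the variance), overexpression replicate 1 (39.1), sponge replicate 3 (21.1) and overexpression replicate 2 (14.96) stood apart from the other 7 libraries (−18.1 to −2.70). These 3 libraries had the 3 lowest values of Clec7a (28.7, 35.1 and 23.7 CPM). Neither the order of depth nor the mitochondrial share (1.27% to 1.48% in all libraries) separated them from the rest, and the part of this component in the group differences was not tested.

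Genes most alike in pattern over the 10 libraries were ranked by Pearson's r of log2 CPM among 9868 genes, as a description that includes the group differences and the shared libraries. For Clec4n they were Nfe2l2 (r = 0.976), the transcription factor of the oxidative stress response, Odc1 (0.961), the polyamine enzyme, and Ptgs2 (0.961), the inducible prostaglandin synthase. For Clec7a they were Tgm2 (0.979), Maml2 (0.972) and Vsir (0.971), and for Clec4a3 Cebpa (0.977), a myeloid transcription factor, Il10ra (0.973) and Sult1a1 (0.967). Il10ra, the receptor for IL-10, also stood among the nearest to Clec4a1 (0.965), after Plxdc2 (0.98) and Fundc1 (0.972). Clec4e was most like the itaconate enzyme Acod1 (0.93), then Ikbip (0.862) and Slamf8 (0.861). Clec4d was most like Fcgr4 (0.956), an activating Fc receptor, Lst1 (0.937) and Rgs2 (0.926). Clec12a was nearest to Nt5c3 (0.977), Phf11b (0.957) and the interferon-inducible GTPase Ifi47 (0.95), Clec5a to Ctps (0.98), Tmem38b (0.972) and Hspa4 (0.97), and Clec4a2 to Ap1b1 (0.97), Prune1 (0.948) and Npepps (0.938).

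Of 28 listed signalling genes below the receptors 27 were tested. With overexpression against the mutated control 0 rose and 1 fell, while 0.539% of all tested genes passed. An unadjusted p under 0.05 was found for 6, against 18.2% of all tested genes. The gene that fell was Src, a tyrosine kinase, at 4.33 ± 0.549 CPM (SD, n = 3) against 8.16 ± 0.052 CPM (SD, n = 2). Its log2 fold change was −0.91 (SE 0.16, edgeR adjusted p = 0.0452). Src had a mean of 5.17 CPM in the scramble group and 4.88 CPM with the sponge, so the mutated control was the highest group. Syk, the kinase shared by the activating receptors, had 222 ± 30.0 CPM (SD, n = 3) against 285 ± 2.45 CPM (SD, n = 2), a log2 fold change of −0.36 (SE 0.11, edgeR adjusted p = 0.142). The adaptors of the receptors had 0.14 (SE 0.10) for Fcer1g, −0.05 (SE 0.10) for Tyrobp and 0.12 (SE 0.09) for Card9. The ubiquitin ligase Traf6 had −0.20 (SE 0.07) and did not pass. The list's median was −0.01, as was that of all genes. For the sponge 0 of 27 passed in edgeR, with 0 at an unadjusted p under 0.05 and Syk at 0.03 (SE 0.11).

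Of 49 other C-type lectin genes on the list 23 were tested, and 0 passed for overexpression in edgeR, with 5 at an unadjusted p under 0.05 (18.2% of all tested genes). The smallest p belonged to Ly75 (DEC-205, an endocytic receptor), with 2.26 ± 0.0355 CPM (SD, n = 3) against 3.45 ± 0.117 CPM (SD, n = 2) and a log2 fold change of −0.61 (SE 0.12, edgeR adjusted p = 0.0582). Thrombomodulin (Thbd) followed with −0.50 (SE 0.15) and the galactose-type lectin Clec10a with −0.24 (SE 0.08). In the scramble group the means were 2.53 CPM for Ly75, 19.6 CPM for Thbd and 39.8 CPM for Clec10a. Each lay between the means of overexpression and the mutated control. The median of the 23 was −0.11. Of 28 genes known to be induced below Syk-coupled receptors 23 were tested. Of these, 2 rose (the chemokine Ccl2 and the cytokine Tnf, by 0.80 and 1.28) and Il6, a cytokine gene, fell by 2.06 (log2). In this comparison 0.539% of all tested genes passed. Mean CPM with overexpression, in the mutated control and in the scramble group was 1.63, 6.75 and 3.28 for Il6. It was 308, 177 and 111 for Ccl2 and 70.3, 29.0 and 27.2 for Tnf. Ptgs2 had −0.87 (SE 0.21, edgeR adjusted p = 0.0939), Nr4a1, an immediate early nuclear receptor, −0.85 (SE 0.28), and Il1rn, the interleukin-1 receptor antagonist, −0.31 (SE 0.10). In the same order of groups the means were 12.6, 23.0 and 13.8 CPM for Ptgs2 and 90.8, 164 and 109 CPM for Nr4a1. For Il1rn they were 20.5, 25.5 and 25.5 CPM. With the sponge the means were 1.60 CPM for Il6, 144 CPM for Ccl2 and 30.4 CPM for Tnf. They were 10.2 CPM for Ptgs2, 84.3 CPM for Nr4a1 and 18.9 CPM for Il1rn in that group. The median of the 23 was −0.13, and 9 had an unadjusted p under 0.05, against 18.2% of all tested genes. For mutated control minus scramble the median was 0.33, and 12 of the 23 had such a p, against 6.47% of all tested genes. There 0 passed in edgeR. For overexpression minus scramble 10 had such a p, against 13.4% of all tested genes, and 1 passed, upward (0.0444% of all tested genes). For the sponge 0 of 23 genes passed in edgeR in either of these lists, with 1 of the other lectins and 6 of the induced genes at an unadjusted p under 0.05 (2.33% of all tested genes).

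The promoters of the most and the least variable receptor genes are shown to set the sequence beside these levels. They are the 250 bases before the start site from RefSeq (GRCm38.p6), 5′ to 3′ on the gene's strand, with matches to the core motif of PU.1, a macrophage transcription factor, in capitals (GAGGAA on either strand). For Clec7a the first of 2 listed start sites was used.
Clec7a, chr6:129472780-129473029, minus strand: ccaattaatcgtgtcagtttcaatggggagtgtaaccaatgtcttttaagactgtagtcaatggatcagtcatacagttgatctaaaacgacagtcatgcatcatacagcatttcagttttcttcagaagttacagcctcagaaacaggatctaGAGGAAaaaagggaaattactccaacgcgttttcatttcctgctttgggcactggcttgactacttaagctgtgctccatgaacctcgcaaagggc
Clec4e, chr6:123289872-123290121, minus strand: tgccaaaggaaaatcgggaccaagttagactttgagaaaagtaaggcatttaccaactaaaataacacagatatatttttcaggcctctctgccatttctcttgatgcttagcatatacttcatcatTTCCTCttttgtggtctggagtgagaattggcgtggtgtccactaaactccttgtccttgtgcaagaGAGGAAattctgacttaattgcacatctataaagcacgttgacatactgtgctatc
The table held promoters for 8 of the 9 genes, all but Clec4n. The PU.1 core stood in 6 of 8 (Clec4e, Clec4d, Clec7a, Clec5a, Clec12a and Clec4a1), against 23.1% of 27025 promoters of the same length. The C/EBP motif TTGCNNAA stood in Clec4e and Clec12a (9.55% of all promoters) and the AP-1 motif TGANTCA in Clec12a (6.87%). The NF-κB motif (1.4%), the antioxidant response element TGACNNNGC (10.1%) and the E-box TCANGTG (12.2%) stood in 0 of 8. All motifs were searched on both strands, and no match overlapped another. Matches describe letters only.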

How the data were processed

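Polyadenylated RNA of 10 libraries of sorted iKCs was analysed as the authors' deposited counts per gene. Per the file headers, they come from featureCounts 2.0.1 with the GENCODE vM30 annotation, by gene name, on read pairs with both ends mapped and without use of strand. The counting command names 12 libraries, of which 10 were analysed here. The tools that the submitters' processing notes list are STAR 2.7.6a, Subread, Trimmomatic and FastQC 0.11.6, with the build GRCm38. That build is not the one of the vM30 annotation, so positions are copied from the deposited table without a build. Each receptor gene's start there differs from that in GENCODE vM21 on GRCm38 (for Clec4n 123206802 against 123229843). Gene positions given here therefore cannot be set beside the GRCm38 positions of the promoters and the microRNA.

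The header has 16 column names over lines of 15 fields, since the counts of sponge replicate 3 and of a scramble library stand in 1 field, the only one whose unit is not a plain count. In this other unit the authors deposited 2 numbers without a separator. They were split where a negative binomial model (dispersion 0.1) made the split likeliest, and 51 of 55866 genes with a next split less than 100 times less likely were left out. The split was tested on 16 pairs of intact libraries joined on purpose. Of the genes that passed this likelihood limit, at least 99.9928% were recovered, and all 9 receptor genes were in every pair. The last field was taken as scramble replicate 2 from header order, so its group is certain and its number is not.

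All 10 libraries entered 1 fit by group in edgeR 4.0.16 (R 4.3.3; quasi-likelihood, robust, TMM factors, expression filter by group) with 6 residual degrees of freedom and 15767 genes tested. P-values were adjusted by the Benjamini-Hochberg method over all of them, and the threshold was 0.05. SE is the log2 fold change over the square root of F, and CPM uses the TMM factors. On simulated counts for overexpression minus mutated control (15514 genes), the share recovered was 98.5% at 2-fold and 94% at 1.5-fold, with 5.8% false calls. For sponge minus scramble (15555 genes), 97% and 88.1% were recovered. Simulated libraries carry no differences shared by many genes, so these shares do not say how often real differences of that size are found. For overexpression minus mutated control Clec4n (2.04-fold lower) passed, while Clec7a (2.54-fold lower) and Clec4a3 (1.51-fold lower) did not. An uncalled gene may therefore differ by more than 1.5-fold.

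The 9 receptor genes, the gene lists and the tests were chosen with earlier results of these data known. All 9 receptor genes are named, with genes of 3 lists (signalling, other C-type lectins, target genes) that were called or were among the 3 smallest p of the rest, 4 adaptor and kinase genes always, and the 3 genes most alike in pattern per receptor gene. One gene that this rule names is not reported here. For seed matches, each gene's longest 3′ UTR was taken from GENCODE vM21 (GRCm38). Alternatives were DESeq2 1.42.0, limma-voom (limma 3.58.1), other scaling factors, filters and splits, fits of the compared groups alone, blocks by number, and leaving out libraries.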

Additional observations from a re-analysis of the deposited data

How the results depend on the processing

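The number of receptor genes called depended on the processing. For overexpression minus mutated control (1 gene in the fit of all 10 libraries) it was 4 with DESeq2, 4 without a filter and 2 without the libraries joined in the deposited field, and 0 to 4 with 1 library left out. For any difference among the 4 groups (1) it was 6 with DESeq2, 7 without a filter, 0 with the stricter filter, 0 without the joined libraries and 0 to 1 with 1 library left out. For mutated control minus scramble (0) it was 1 with DESeq2, 2 without a filter and 4 in a fit of these groups alone. For overexpression minus scramble (0) it was 2 with DESeq2 and 4 without a filter, for the difference of effects (0) it was 3 and for sponge minus scramble (0) it was 1 without a filter. Without a filter the gene-specific spread was wholly replaced by the trend (infinite prior degrees of freedom, against a median of 4.93 with the filter), so these counts are not comparable. Counts of all genes moved as well. For any difference among the groups (66) it was 849 with DESeq2, 1707 without a filter, 42 with the stricter filter and 49 without the joined libraries. Without a filter it was 149 for mutated control minus scramble (4), 747 for overexpression minus scramble (7), 331 for the difference of effects (0) and 24 for sponge minus scramble (0). For overexpression minus mutated control (85) it was 500 with DESeq2 and 78 without the joined libraries, and it ranged from 0 to 279 with 1 library left out and from 0 to 1390 under the other settings.

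Deviations of same-numbered libraries from their group means had correlations of −0.414 to 0.156 in 13 pairs by title number (1 over 0.1). By library name 13 pairs had −0.414 to 0.0995 (0 over 0.1). Pairs with different numbers reached 0.459. In each control group the deviations mirror each other. These correlations therefore cannot decide whether the numbers pair libraries. With the replicate block by title number or by library name, 0 receptor genes were called for overexpression minus mutated control (adjusted p of Clec4n 0.2 and 0.218) and 0 for any difference.

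Over 45 log2 fold changes and 981 values under alternatives, 919 kept their direction and side of the threshold, 31 newly passed and 10, all of Clec4n for overexpression minus mutated control, no longer passed. The sign of 21 values that never passed changed, in 9 of the 45. Precision is limited by groups of 2 or 3 libraries, and for Clec4a2 also by its 151 to 381 reads per library.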
